A study of Homo sapiens with 12 samples.

Results

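The response of RT112 to CM272 was described over 22465 genes, those of the 70523 rows of the array table that the platform annotation gave exactly 1 gene symbol, with the brightest row taken for each gene. RT112 is an established human bladder cancer cell line, and CM272 is a compound that inhibits both the histone methyltransferase G9a and the DNA methyltransferases. The CM272 group had 3 arrays of RT112 treated with the compound at its IC50, the median inhibitory concentration, and the control group had 3 arrays of RT112 without it. RNA came from cells grown in culture, the sources used here do not give how long the treatment lasted, and the labels number the replicates without saying whether they were separate cultures. Of the genes, 17149 were protein coding, 3288 were non-coding RNA genes and 1768 were pseudogenes by the gene types of RefSeq.

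G9a places methyl groups on histone H3 and DNA methyltransferases place them on cytosine, and both marks are found at silenced genes. Blocking them is studied in tumours as a way to change which genes are read. Protein-coding genes are copied by RNA polymerase II, while many of the small structural RNAs measured by the same arrays are copied by RNA polymerase III or cut out of introns, so coding and non-coding genes are kept apart here.

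The level of the arrays as a whole differed between the groups. The array median of the log2 values averaged 4.43 ± 0.02 in CM272 and 5.07 ± 0.03 in control (SD, n = 3 each), a difference of -0.65 (exact two-sided permutation p = 0.1, the smallest that 3 against 3 allows). Each gene was therefore tested on the deposited values and after each array was centred on its own median. A change given without its scale is on the deposited values. Centring moves each change up by 0.65, which enlarges rises and shrinks falls. Pearson's r over all rows of the array table lay between 0.991 and 0.992 within CM272 and within control, and between 0.945 and 0.955 across the groups. In CM272 2726 genes (12.1%) had the same value on all 3 arrays, against 0 in control, which makes the spread of those genes too small. The equal values go with the group, as the lower median does, and their part in the changes was not tested. Without those genes 612 genes were higher and 567 lower by at least 2-fold on both scales. Of the urothelial epithelial markers, 9 of 9 measured lay above the array median in both groups. Of the leukocyte markers 1 of 5 did so in both groups, of the endothelial markers 2 of 6 in CM272 and 1 of 6 in control, and of the fibroblast markers 4 of 5 in CM272 and 3 of 5 in control. Among 155 rows of ERCC control probe sets the log2 change had an SD of 0.57 and a median of -0.37 on the deposited values and 0.27 after centring, against an SD of 0.72 and medians of -0.57 and 0.08 over the genes. By this difference alone, with no test, 2 of these rows were at least 2-fold higher and 0 at least 2-fold lower on both scales. The median level of the ERCC rows was 3.55 in CM272 and 3.96 in control. Both lie below the array medians, where a fold is compressed if the level is background.

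On the deposited values limma called 2384 genes higher (10.6%) and 16480 lower (73.4%) in CM272, at a Benjamini-Hochberg adjusted p under 0.05. On the median-centred values it called 8572 higher (38.2%) and 5932 lower (26.4%). The genes called on both scales in the same direction were 2384 higher (10.6%) and 5932 lower (26.4%), which are the deposited rises and the centred falls. The median change over the genes was -0.57 deposited and 0.08 centred. A rise on both scales therefore had to lie further from the typical gene than a fall. Counts of rises and falls on both scales are thus not set at equal bars. The words rose and fell are kept for genes called on both scales. Changes of at least 2-fold on both scales were found in 640 genes higher (2.85%) and 594 lower (2.64%).

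Among changes of at least 2-fold, rises outnumbered falls in coding genes and falls outnumbered rises in non-coding ones, while the few largest changes were mostly rises in both. Of the coding genes 2056 rose (12.0%) and 4458 fell (26.0%), 540 (3.15%) and 394 (2.30%) of them by at least 2-fold. Of the non-coding RNA genes 197 rose (5.99%) and 869 fell (26.4%), 63 (1.92%) and 116 (3.53%) by at least 2-fold. With a log2 change of at least 3 on both scales, 53 coding genes rose and 5 fell, and 12 non-coding genes rose and 0 fell. Whether the balance differs between the classes was not tested, and the non-coding genes were dimmer, with a median control level of 4.75 against 5.86 for coding genes.

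**Figure D1:**
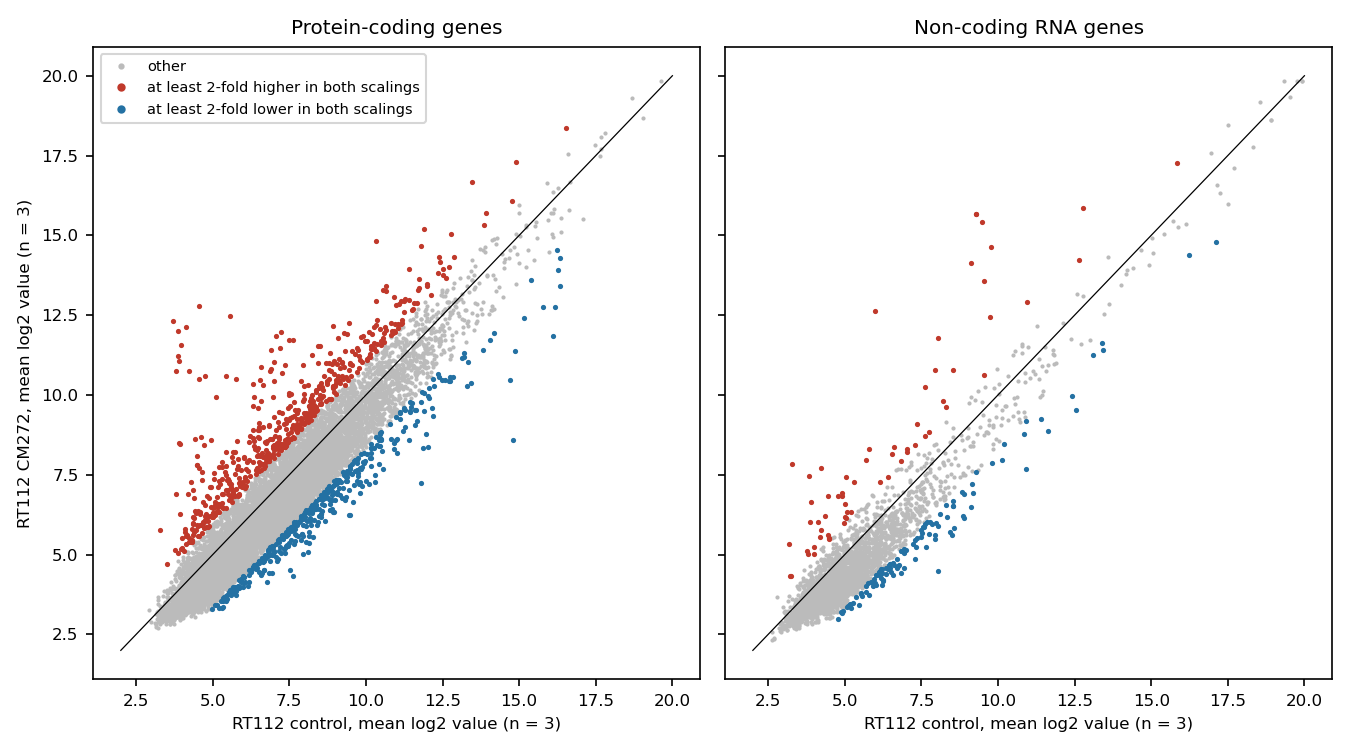
Mean log2 value of each gene in the CM272 arrays (vertical axis) against the control arrays (horizontal axis), 3 arrays each, with coding genes on the left and non-coding RNA genes on the right. The diagonal marks equal values. The 540 coding and 63 non-coding genes at least 2-fold higher on both scales lie above it in red, and the 394 coding and 116 non-coding genes at least 2-fold lower lie below it in blue.

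Among the coding genes with the largest rises, several encode parts of the machinery that starts and releases transcription by RNA polymerase II. POLR2A, the largest subunit of that polymerase, stood at 14.91, 14.71 and 14.88 in the CM272 arrays, against 10.34, 10.29 and 10.34 in the control arrays. HEXIM1, which holds the elongation kinase P-TEFb inactive, stood at 11.71, 11.66 and 11.76 in CM272 and at 7.67, 7.58 and 7.59 in control. For GTF2B, the initiation factor TFIIB, the values were 10.42, 10.26 and 10.40 in CM272 and 6.32, 6.11 and 6.50 in control. The groups of all 3 genes lay far apart, and the absence of overlap was a condition for naming a gene. The log2 changes were 4.51 ± 0.07 for POLR2A (SE; adjusted p = 2.15e-06, limma), 4.10 ± 0.05 for HEXIM1 (adjusted p = 1.96e-06) and 4.05 ± 0.11 for GTF2B (adjusted p = 5.41e-06), and 5.16, 4.74 and 4.69 after centring.

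Signalling and cell-shape genes were also among the 20 largest coding rises. SLIT2, a secreted guidance ligand of ROBO receptors, stood at 10.88, 10.34 and 10.55 in CM272 and at 4.71, 4.79 and 4.71 in control. CXCR4, the receptor of the chemokine CXCL12, stood at 10.07, 9.83 and 9.93 in CM272 and at 5.20, 5.29 and 4.83 in control. Both lay far above their control arrays, and in control SLIT2 lay below the array median, where a fold is compressed if the level is background. The changes were 5.85 ± 0.13 for SLIT2 and 4.83 ± 0.13 for CXCR4. The ephrin receptor gene EPHA4 rose by 4.75 ± 0.18 to 11.97 ± 0.33 (SD, n = 3) in CM272, against 7.22 ± 0.19 in control. The collagenase gene MMP13 rose by 4.22 ± 0.14 and ARL14, a small ARF-like GTPase gene, by 4.79 ± 0.18.

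Genes that restrain growth or glucose uptake rose as well. TXNIP, which binds thioredoxin and limits glucose uptake, stood at 11.52, 11.13 and 11.57 in CM272, against 6.85, 6.90 and 6.92 in control, a change of 4.52 ± 0.12. The stress sensor gene GADD45B stood at 11.13, 10.42 and 11.09 in CM272 and at 6.65, 6.55 and 6.49 in control, a change of 4.31 ± 0.20. The histone genes H2AC6, H2AC25, H2AC13, H2BC21 and H2BC5 rose by between 3.88 and 4.74. Histone genes share sequence, so the values of single copies are uncertain, and the same holds for the near-identical FRG2 and FRG2B, which rose by 4.20 ± 0.25 and 4.07 ± 0.23. VAMP1, a synaptobrevin gene of vesicle fusion, rose by 3.92 ± 0.21 and GRAPL by 4.60 ± 0.13. Over the 20 genes the adjusted p of limma on the deposited values lay between 1.96e-06 and 1.7e-05.

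The 20 largest falls included genes of the epithelial surface and adhesion. KRT13, a keratin of stratified epithelium, stood at 12.83, 12.60 and 12.80 in CM272, against 15.80, 15.77 and 15.75 in control. The related KRT6C, which shares sequence with other KRT6 genes and is therefore uncertain as a single copy, stood at 8.96, 8.68 and 8.68 in CM272 and at 11.85, 11.84 and 12.24 in control. FAT2, an atypical cadherin gene, stood at 7.61, 7.75 and 7.71 in CM272 and at 10.46, 10.62 and 10.56 in control. All 3 stayed above the array median in both groups, and their groups did not overlap, which the rule for named genes required. The deposited changes were -3.03 ± 0.07 for KRT13, -3.20 ± 0.14 for KRT6C and -2.85 ± 0.06 for FAT2, and -2.38, -2.56 and -2.21 after centring. The adhesion gene AMIGO2 fell by 3.04 ± 0.10, CLCA2, a chloride channel regulator of squamous epithelium, fell by 2.93 ± 0.15, and FGFBP1, which carries fibroblast growth factors from the matrix, fell by 2.92 ± 0.11.

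HIF1A, the oxygen-sensing transcription factor subunit, stood at 12.38, 12.44 and 12.37 in CM272, against 15.20, 15.17 and 15.13 in control, a change of -2.77 ± 0.05 on the deposited log2 scale and of -2.12 centred (adjusted p = 2.15e-06 and 2.51e-06, limma). MRPL3, a protein of the mitochondrial ribosome, stood at 10.28, 10.54 and 10.03 in CM272 and at 13.38, 13.12 and 13.42 in control. PIGU, a subunit of the transamidase that attaches GPI anchors, stood at 10.52, 10.40 and 10.23 in CM272 and at 13.34, 13.30 and 13.60 in control. Each of these fell without overlap between groups, as the rule for named genes required. FYB1, an adaptor protein gene best known in T cells, fell by 3.23 ± 0.09. The WNT receptor gene FZD6 fell by 2.83 ± 0.08, the adenosine receptor gene ADORA2B fell by 2.75 ± 0.16 and the lipid phosphatase gene PLPP2 fell by 2.81 ± 0.07. PMEPA1, a TGF-beta regulator gene, and LRP8, a reelin and lipoprotein receptor gene, had equal values on all 3 CM272 arrays, 7.21 and 6.92, against 10.10 ± 0.10 and 9.80 ± 0.12 in control (SD, n = 3), so their errors rest on the control arrays alone.

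**Figure D2:**
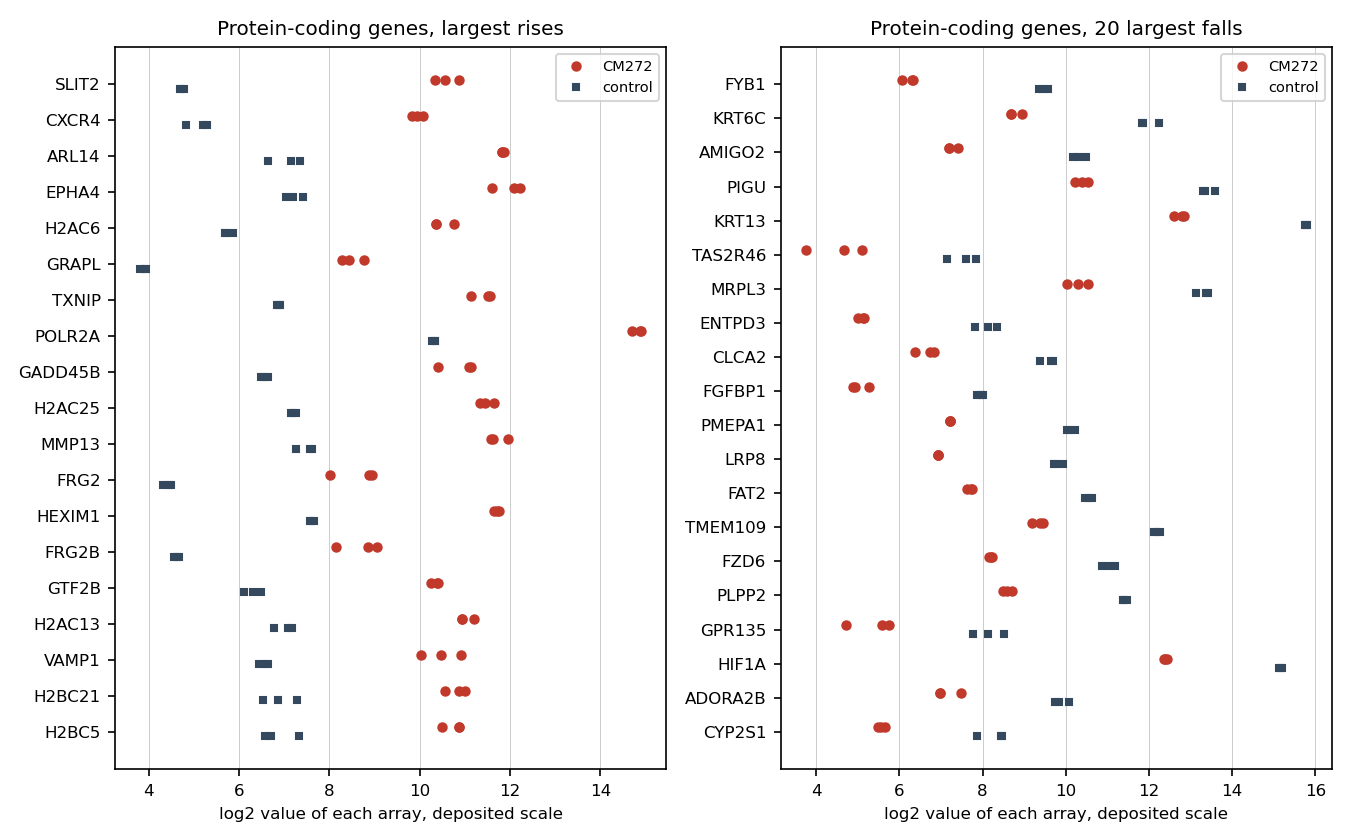
Log2 value of every array, on the deposited scale, for the coding genes with the largest rises, 1 of which is not shown (left), and the 20 with the largest falls (right). Red circles are the 3 CM272 arrays and dark squares the 3 control arrays, and the genes were chosen so that the 2 sets do not overlap.

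Within coding families, growth arrest genes and CREB, ATF and C/EBP factors had the highest shares of rises of at least 2-fold. Of 25 genes of growth arrest and negative regulation 12 rose and 1 fell, 6 of them at least 2-fold higher and 0 at least 2-fold lower, against the 3.15% and 2.30% of all coding genes. Besides GADD45B they included RGS2, a regulator of G protein signalling (2.79), GADD45G (1.95) and the antiproliferative gene BTG1 (1.31), while TOB1 fell by 1.34 (-0.69 after centring). Of 26 CREB, ATF and C/EBP factor genes 8 rose and 3 fell, with 6 at least 2-fold higher. The stress factor gene ATF3 rose by 2.00, to 8.01 in CM272 against 6.01 in control, DDIT3, which encodes CHOP, by 1.34, CREBRF by 1.30 and ATF2 by 1.24.

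PI3 kinase pathway genes moved in both directions, but the larger changes were rises. Of 35 such genes 11 rose and 7 fell, 5 and 0 by at least 2-fold. The AKT-related kinase gene SGK1 rose by 1.80, the insulin receptor substrate gene IRS2 by 1.78, the regulatory subunit gene PIK3R3 by 1.73 and PIK3C3, the kinase of autophagosome membranes, by 1.45. IRS1 fell by 1.15 (-0.51 after centring) and the catalytic subunit gene PIK3CB fell by 1.35 (-0.70 after centring).

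Of 31 Mediator genes, which link activators to RNA polymerase II, 10 rose (32.3%) and 4 fell (12.9%), against 12.0% and 26.0% of all coding genes. By at least 2-fold 5 rose and 0 fell. MED29 rose by 1.66 and MED21 by 1.43, and the paralogous kinase genes went opposite ways, CDK19 rising by 1.17 and CDK8 falling (-0.36 after centring). CDK8 lost its call without any 1 of 5 of the 6 arrays. Of 15 genes of Integrator, which cuts small nuclear RNAs at their ends, 2 rose (13.3%) and 4 fell (26.7%), shares near those of all coding genes, and INTS13 fell by 2.38 (-1.73 after centring). Of 24 importins and exportins 4 rose (16.7%) and 7 fell (29.2%), also near those shares. KPNA2 rose by 1.32, and XPOT, the exporter of tRNA, fell by 2.63, to 6.32 in CM272 against 8.95 in control.

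The acid pump and the microtubule subunits rose together in part. Of 23 genes of the vacuolar ATPase, the pump that acidifies lysosomes, 10 rose (43.5%) and 2 fell (8.70%), against 12.0% and 26.0% of all coding genes. By at least 2-fold 4 rose and 0 fell. The family's median change was 0.08 deposited and 0.73 centred, against -0.55 and 0.09 over coding genes. The subunit genes ATP6V1E1, ATP6V1D, ATP6V0D1 and ATP6V1F rose by 2.30, 1.68, 1.63 and 1.19. ATP6V1E2, known from testis, fell by 1.26 (-0.62 after centring), and lay below the array median in CM272. Of 24 tubulin genes 9 rose and 6 fell. TUBB2A and TUBB2B, near-identical beta-tubulins that the probes may not tell apart, rose by 2.62 and 2.65, and TUBA1A by 1.85 and TUBA4A by 1.74. TUBB, the main beta-tubulin gene here, fell by 1.23 (-0.58 after centring), to 14.00 in CM272 against 15.23 in control.

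Genes of selenoproteins and of selenium factors went both ways. Selenoproteins need a special decoding of a stop codon, and not every gene of this set encodes one. Of 29 genes 8 rose (27.6%) and 8 fell (27.6%), against 12.0% and 26.0% of all coding genes, 4 and 2 by at least 2-fold. SELENOW rose by 2.48, the peroxidase genes GPX1 by 2.12 and GPX4 by 1.76, and the thyroid hormone-inactivating gene DIO3 by 2.47, starting below the array median. Among the falls were GPX2, the epithelial peroxidase, at -2.42 and -1.77 after centring, and GPX8 at -1.81 and -1.16. LGALS1, the lectin galectin 1, rose by 2.63, to 11.93 in CM272 against 9.30 in control. Of 13 galectin genes 2 rose (15.4%) and 4 fell (30.8%), shares near the 12.0% and 26.0% of all coding genes. Of 12 septin genes, whose products form filaments at the cell cortex, 2 rose and 3 fell, and SEPTIN4 rose by 3.71, to 8.44 in CM272 against 4.73 in control.

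Desmosome genes held the highest share of 2-fold falls among the coding families described. Of 19 genes 11 fell (57.9%) and 2 rose (10.5%), against 26.0% and 12.0% of all coding genes, 4 and 0 by at least 2-fold. The desmosomal cadherin gene DSG2 stood at 9.07 in CM272 against 11.61 in control, a change of -2.54, and DSC3 at 7.09 against 9.24. The p53-linked desmosome gene PERP fell by 2.28 and the plakin gene DST, which encodes dystonin, fell by 1.82, and after centring these 4 falls were between -1.89 and -1.17. JUP, plakoglobin, rose by 0.99 and the periplakin gene PPL by 0.60. Of 31 claudin and tight junction genes 13 fell (41.9%) and 2 rose (6.45%), with MARVELD1 at -2.68 and CLDN1 at -2.37. Of 58 WNT pathway genes 20 fell (34.5%) and 5 rose (8.62%). The ligand genes WNT5A and WNT10A changed by -2.12 and -1.85, while RNF43, a ubiquitin ligase gene that removes frizzled receptors, rose by 2.07.

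Genes that make nucleotides, load tRNA and build ribosomes held many falls and few rises. Of 23 genes of purine and pyrimidine synthesis 13 fell and 2 rose, 4 and 1 by at least 2-fold. ATIC and GART, enzymes of purine synthesis, changed by -2.11 and -1.93, the thymidylate kinase gene DTYMK fell by 2.05, and CAD, the enzyme that opens pyrimidine synthesis, fell by 1.75. The thymidine kinase gene TK1 rose by 1.15. Of 35 aminoacyl-tRNA synthetase genes 13 fell and 1 rose, with changes of -2.57 for EPRS1, -1.85 for GARS1 and -1.81 for IARS1. Of 67 ribosome biogenesis genes 35 fell and 2 rose, 6 and 0 by at least 2-fold, with a family median of -0.91 on the deposited values and -0.27 after centring. RRS1 stood at 11.31 in CM272 against 13.19 in control, with equal values on all 3 CM272 arrays, and NOP58, a core protein of box C/D snoRNPs, at 9.52 against 11.26. Among 41 amino acid transporter genes 15 fell and 2 rose, with SLC38A1, a glutamine carrier, at -1.93 and SLC36A4 at -1.77. These comparisons are counts beside the 26.0% of coding genes that fell, with no test of the difference.

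Bitter taste receptor genes and keratin-associated proteins complete the families with high shares of falls. Of 26 taste receptor genes 9 fell (34.6%) and 0 rose, against 26.0% and 12.0% of all coding genes. TAS2R46 stood at 5.10, 4.66 and 3.75 in CM272 and at 7.15, 7.59 and 7.85 in control, TAS2R30 changed by -2.35 and TAS2R14 by -1.73, and these neighbouring receptor genes share sequence. Of 87 keratin-associated protein genes 40 fell (46.0%) and 3 rose (3.45%), 8 and 1 by at least 2-fold. Their median control level was 4.65, under the array median. One that fell was KRTAP7-1, at 3.37 in CM272 against 5.34 in control. Of 45 cytochrome P450 genes other than CYP4F 14 fell (31.1%) and 2 rose (4.44%). CYP2S1 stood at 5.66, 5.48 and 5.56 in CM272 and at 8.46, 8.44 and 7.86 in control, while CYP1A1, the enzyme induced through the aryl hydrocarbon receptor, rose by 1.78 from a control level below the array median. Of the large families, 46 of 480 C2H2 zinc finger genes rose (9.58%) and 100 fell (20.8%), both under the shares of all coding genes. Of 328 solute carrier genes 24 rose (7.32%) and 129 fell (39.3%). Among the zinc finger genes ZNF844 rose by 3.56, to 9.92 in CM272 against 6.36 in control.

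**Figure D3:**
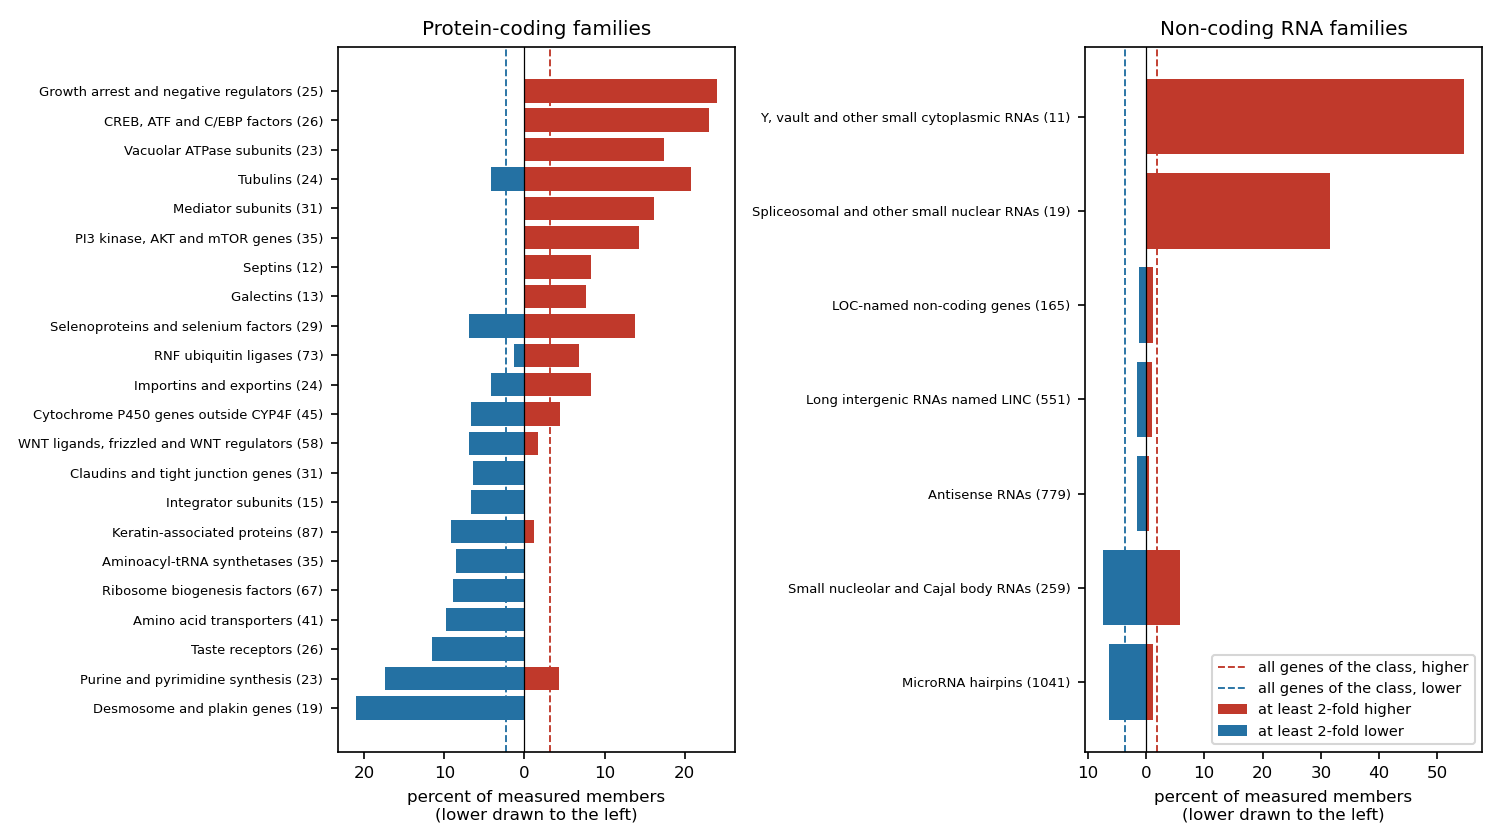
Share of the measured members of each family that were at least 2-fold higher (red, to the right) or lower (blue, to the left) in CM272 on both scales, for coding (left) and non-coding (right) families, with the number of members in brackets. Dashed lines mark the shares over all genes of the class, 3.15% and 2.30% for coding genes and 1.92% and 3.53% for non-coding genes. Growth arrest genes (6 of 25) and desmosome genes (4 of 19) are at the ends of the coding panel.

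Some of the genes that rose at least 2-fold stood side by side in RefSeq order. On chromosome 17 a run of 6 measured neighbours, SUPT4H1, RNF43, HSF5, MTMR4, SEPTIN4 and TEX14, rose by between 1.56 and 8.23. On chromosome 6 a run of 4, RAET1G, ULBP2, ULBP1 and RAET1L, which encode ligands of the natural killer receptor NKG2D, rose by between 1.70 and 1.82. The other runs of 3 or more that rose were 2 of histone genes, 1 of USP17-like genes, 1 of HLA-C, HLA-B, MICA and MICB, and 1 of RNF114, SNAI1 and UBE2V1. Falls of at least 2-fold formed 2 such runs, both with aldo-keto reductase genes.

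Several of the coding genes with the largest rises hold a TATA box before their start. This core promoter element lies about 30 bases before the start of some genes and is bound by the TATA-binding protein. The bases before the start of 6 genes that rose are shown with the box in capitals, followed by those of POLR2A and TXNIP, which rose as much and lack these letters there. All are from RefSeq on GRCh38.p14, 45 bases ending just before the gene start, on the gene's strand.
GTF2B, chr1:88891568-88891612, minus strand: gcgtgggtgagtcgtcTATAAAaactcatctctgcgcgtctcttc
HEXIM1, chr17:45148430-45148474, plus strand: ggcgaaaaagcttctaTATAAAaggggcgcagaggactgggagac
GADD45B, chr19:2476082-2476126, plus strand: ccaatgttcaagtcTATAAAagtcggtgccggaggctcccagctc
TUBB2A, chr6:3157545-3157589, minus strand: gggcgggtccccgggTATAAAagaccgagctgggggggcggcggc
H2AC6, chr6:26124127-26124171, plus strand: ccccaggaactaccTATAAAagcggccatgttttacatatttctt
H2BC21, chr1:149886683-149886727, minus strand: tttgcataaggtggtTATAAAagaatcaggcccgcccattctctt
POLR2A, chr17:7484321-7484365, plus strand: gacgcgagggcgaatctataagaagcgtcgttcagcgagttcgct
TXNIP, chr1:145996580-145996624, minus strand: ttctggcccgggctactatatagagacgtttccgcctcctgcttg

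The letters TATAAA on the gene's strand, starting 35 to 25 bases before the gene start, were found in 479 of 13933 coding genes with a RefSeq promoter (3.44%), and in 2.41% of all 27305 promoters of the table. Among genes at least 2-fold higher they were found in 54 of 449 (12.0%), with a log2 change of at least 2 in 24 of 109 (22.0%), and of at least 3 in 14 of 38 (36.8%). Among genes at least 2-fold lower they were found in 10 of 319 (3.13%), and with a log2 change of at least 2 in 0 of 27. The share was higher in each larger class of rise. Many histone genes hold this box, so the shares were also counted without them: 9.72%, 14.6% and 30.0% for the 3 classes of rises, 2.83% for the falls and 3.32% overall. Among genes whose control level lay above the coding median they were 8.97%, 23.2% and 39.1% for the rises, 2.35% for the falls and 1.49% overall. Of the 20 largest rises 10 of 17 with a promoter held the box, and of the 20 largest falls 0 of 16. These rises include the histone genes H2AC6, H2AC25, H2AC13, H2BC21 and H2BC5, and this share was not counted without them. This position was chosen after the data were seen, and no test was made of it. Anywhere in the 300 bases and on either strand, the same letters were found in 17.1% of the promoters of genes at least 2-fold higher, 8.46% of those at least 2-fold lower and 9.24% of all coding genes.

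**Figure D4:**
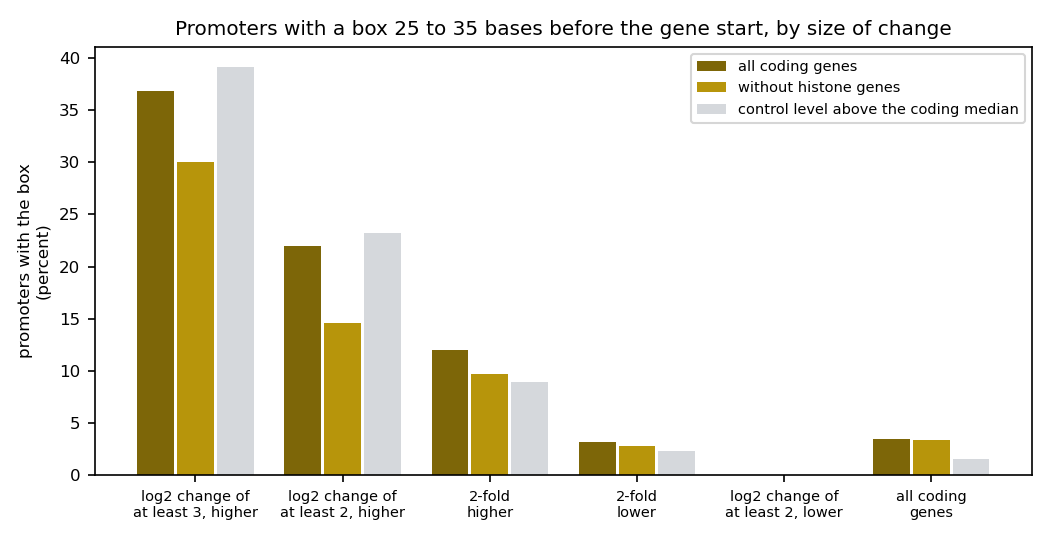
Percent of promoters that hold the TATA box 25 to 35 bases before the gene start, by size and direction of the change in CM272, for all coding genes, without histone genes, and for genes with a control level above the coding median. The share is 36.8% among all coding genes with a rise of at least 3 on the log2 scale, 0 among those with a fall of at least 2, and 3.44% over all coding genes.

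U3, a box C/D snoRNA needed for the first cuts of the ribosomal RNA precursor, was among the largest non-coding rises. It has 5 measured gene copies on chromosome 17, and all 5 rose by at least 2-fold. SNORD3A stood at 15.47, 15.02 and 15.77 in CM272, against 9.14, 9.52 and 9.81 in control. SNORD3C stood at 14.17, 13.61 and 14.59 in CM272 and at 8.91, 9.01 and 9.39 in control, and SNORD3D at 14.60, 14.25 and 15.02 in CM272 and 9.42, 9.93 and 9.92 in control. SNORD3B-1 and SNORD3B-2 had identical values. The copies are near-identical in sequence and count as 1 signal here, with changes between 4.86 ± 0.23 and 6.37 ± 0.26 and adjusted p between 6.76e-06 and 1.14e-05 (limma). GRAPL, among the largest coding rises above, lies in the same stretch of chromosome 17 by RefSeq order.

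The other snoRNAs moved in both directions. Of 169 further SNORD genes 22 rose and 30 fell, 5 and 15 by at least 2-fold. Of 64 SNORA genes 16 rose and 16 fell, while of 21 Cajal body RNAs 0 rose and 1 fell. Of all 259 snoRNA and Cajal body RNA genes, U3 included, 43 rose (16.6%) and 47 fell (18.1%). The shares of all non-coding genes were 5.99% and 26.4%. By at least 2-fold 15 of the 259 rose (5.79%) and 19 fell (7.34%), against 1.92% and 3.53%. Whether these shares differ was not tested. SNORD78, from a host gene that carries many snoRNAs, rose by 4.01 ± 0.26, to 13.41, 13.10 and 14.17 in CM272 against 9.66, 9.49 and 9.49 in control. SNORD119 averaged 5.62 ± 0.57 in CM272 and 8.48 ± 0.17 in control (SD, n = 3 each). SNORD93 fell by 2.31 (-1.67 after centring), to 14.79 in CM272 against 17.11 in control. Most snoRNAs are cut from introns. Of the 19 that fell by at least 2-fold, 9 lay in 1 measured host gene, and the host fell for 5 of these 9 and rose for 0, against 27 and 13 of the 85 measured snoRNAs with such a host. SNORD11 and SNORD11B both lie in NOP58, which fell by 1.74, and SNORA58 lies in MRPL3, which fell by 3.02. Of the 15 that rose, 7 had such a host, of which 3 rose and 2 fell.

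Of 19 spliceosomal and other small nuclear RNA genes 10 rose and 2 fell, 6 and 0 by at least 2-fold, with median changes of 0.64 deposited and 1.28 centred, against -0.61 and 0.04 over non-coding genes. This set was chosen by gene name. Of the 24 genes that RefSeq types as small nuclear RNA, 10 rose and 3 fell. RNU4-1, a U4 gene, stood at 11.81, 11.72 and 11.79 in CM272, against 7.95, 8.09 and 8.12 in control, and its near-identical neighbour RNU4-2 rose by 2.66. RNU6ATAC, the U6 counterpart of the minor spliceosome, stood at 8.02, 7.43 and 8.09 in CM272 and at 3.28, 3.31 and 3.21 in control, below the array median. RNU11, also of the minor spliceosome, rose by 2.01. These RNAs include products of both polymerase II, such as U4 and U11, and polymerase III, such as U6atac.

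Y and vault RNAs, short products of RNA polymerase III that bind the Ro protein and the vault particle, rose with 1 exception in each set. RNY1, RNY3 and RNY4 rose by 3.06, 1.42 and 2.25, with RNY1 at 15.85 in CM272 against 12.79 in control, while RNY5 fell by 0.97 (-0.32 after centring), and was not called with the mean of its rows. VTRNA1-1, VTRNA1-2 and VTRNA1-3 rose by 1.90, 2.17 and 2.77, and VTRNA2-1 changed by -0.26 (0.38 after centring), and was not called on both scales. RN7SK, the RNA that HEXIM1 binds, stood at 19.83, 19.88 and 19.81 in CM272, against 19.93, 19.90 and 19.93 in control, the top value of each of the 6 arrays. RN7SL1 was at that top value in CM272 too, and a level at the top of the scale gives no measure of a rise. RMRP changed by -0.57, and by 0.07 after centring. The telomerase RNA gene TERC, a product of polymerase II, fell by 1.53 (-0.89 after centring). RNY3, VTRNA1-1, VTRNA2-1, RN7SK, RN7SL1, RMRP and TERC, like the long RNAs and pseudogenes named further on with UCA1 and USP17L6P, were chosen after their values were seen.

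Of 1041 microRNA hairpin genes 45 rose (4.32%) and 270 fell (25.9%), against 5.99% and 26.4% of all non-coding genes. By at least 2-fold 12 rose (1.15%) and 66 fell (6.34%), against 1.92% and 3.53%. The array measures the hairpin region of the transcript and not the short mature RNA. Of the 78 hairpins changed by at least 2-fold, 69 had mature sequences in the RefSeq table, 92 in all, and these had 92 different seeds, so no seed was shared between 2 of them. The mature RNAs of 5 hairpins the results turn on are shown with bases 2 to 8, the seed, in capitals, followed by the hairpin of the largest rise, for which the table holds no mature form. They are from RefSeq on GRCh38.p14.
MIR218-1, hsa-miR-218-5p: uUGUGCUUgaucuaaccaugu
MIR21, hsa-miR-21-5p: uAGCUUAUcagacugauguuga
MIR1299, hsa-miR-1299: uUCUGGAAuucugugugaggga
MIR421, hsa-miR-421: aUCAACAGacauuaauugggcgc
MIR944, hsa-miR-944: aAAUUAUUguacaucggaugag
MIR3143, hairpin: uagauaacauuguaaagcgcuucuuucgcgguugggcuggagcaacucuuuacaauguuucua

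MIR3143 had the largest rise of any non-coding RNA gene named here, at 13.05, 12.33 and 12.49 in CM272 against 5.57, 6.23 and 6.11 in control, a change of 6.65 ± 0.25 (adjusted p = 6.24e-06, limma). Its nearest RefSeq neighbours are the histone gene H2AC12 and a tRNA gene, in the histone cluster of chromosome 6. MIR218-1 rose by 3.50 and lies within SLIT2, which rose by 5.85. MIR21, a microRNA raised in many tumours, stood at 8.21, 8.46 and 8.48 in CM272, against 6.02, 6.43 and 7.36 in control, a change of 1.78.

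The hairpins that fell were in part bright in control. MIR1299 stood at 9.66, 9.89 and 9.08 in CM272, against 12.48, 12.59 and 12.60 in control. MIR944, which lies in the gene of the basal factor p63, stood at 6.12, 5.88 and 5.47 in CM272 and at 8.43, 8.53 and 8.73 in control. For MIR421 the values were 6.68, 6.03 and 5.74 in CM272 and 8.51, 9.33 and 8.86 in control. None of these groups overlapped, which the rule for named genes required. The deposited changes were -3.01 ± 0.20, -2.74 ± 0.17 and -2.75 ± 0.30, and -2.37, -2.09 and -2.11 after centring. MIR421 and MIR545 lie in the long RNA gene FTX, which fell by 0.97 (-0.33 after centring). MIR374A and MIR374C lie in the same gene and were not called on both scales, with deposited changes of 0.37 and -0.01 and centred changes of 1.02 and 0.64. Of the 66 hairpins that fell at least 2-fold, 31 lay in 1 measured host gene, of which 14 fell and 5 rose, against 150 and 76 of the hosts of the 562 hairpins with such a host. Of the 12 that rose, 7 had such a host, of which 3 rose and 0 fell.

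Long non-coding RNAs held few changes of at least 2-fold. Of 551 genes named LINC 19 rose (3.45%) and 166 fell (30.1%), against 5.99% and 26.4% of all non-coding genes. By at least 2-fold 6 of them rose (1.09%) and 8 fell (1.45%), against 1.92% and 3.53%. Of 779 antisense RNA genes 31 rose (3.98%) and 196 fell (25.2%), 4 (0.513%) and 12 (1.54%) by at least 2-fold. Both sets were dim, with median control levels of 4.66 (LINC) and 4.65 (antisense), under the control array median of 5.07. Over all non-coding genes this level was 4.75. Of the 822 non-coding genes with the lowest control levels 13 rose and 0 fell by at least 2-fold. Of the 822 with the highest levels 32 rose and 101 fell (12.3%). The part of the level in the low shares was not tested. UCA1, a long RNA first described in urothelial carcinoma, stood at 12.56, 12.44 and 12.30 in CM272, against 10.09, 9.91 and 9.23 in control, a change of 2.69. HCP5, a long RNA gene of the HLA class I region, rose by 2.41 and CBR3-AS1 by 2.49. LINC01947 stood at 7.87, 6.88 and 7.65 in CM272 and at 3.66, 3.98 and 3.88 in control. LINC00273 stood at 7.14, 8.46 and 7.46 in CM272 and at 10.91, 10.62 and 11.26 in control, a change of -3.24 ± 0.36, or -2.59 after centring. In control LINC01947 lay below the array median.

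**Figure D5:**
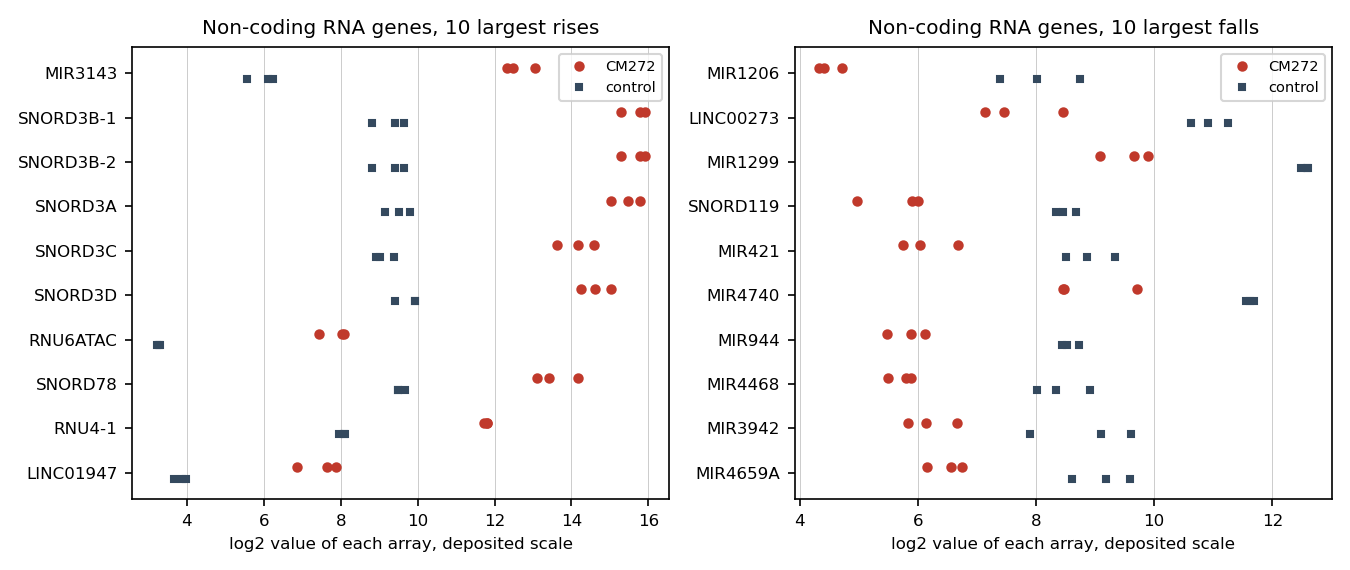
Log2 value of every array, on the deposited scale, for the 10 non-coding RNA genes with the largest rises (left) and the 10 with the largest falls (right). Red circles are the 3 CM272 arrays and dark squares the 3 control arrays. The U3 copies SNORD3A to SNORD3D lie between 13.61 and 15.91 in CM272 and between 8.81 and 9.93 in control.

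Of the 1768 pseudogenes 126 rose (7.13%) and 521 fell (29.5%), 35 (1.98%) and 75 (4.24%) by at least 2-fold. The largest rises were in copies of tandem repeats, which share sequence with many other copies. USP17L6P, related to the USP17 deubiquitinases, stood at 13.72, 13.83 and 14.22 in CM272, against 4.40, 3.93 and 4.26 in control, and REXO1L1P, a relative of an RNA exonuclease gene, at 12.92, 12.08 and 12.88 in CM272 and 4.47, 4.57 and 4.44 in control. Both were below the array median in control, and their changes were 9.73 and 8.14. The keratin pseudogenes KRT17P1 and KRT17P2 fell, with deposited changes of -2.76 and -2.65. Of 68 pseudogenes of U7, the RNA that ends histone messages, 30 fell and 3 rose, 14 and 1 by at least 2-fold. Of 488 pseudogenes of 5S ribosomal RNA 143 fell and 15 rose, 12 and 3 by at least 2-fold. Among 52 pseudogenes of Y RNAs 8 rose and 7 fell, with a median change of -0.31 (0.34 after centring), against 1.84 and 2.48 for the 4 Y RNA genes themselves.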

How the data were processed

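The authors deposited 1 table of log2 values. Per the submitters' processing notes it was made by RMA with Affymetrix Expression Console, and the sources used here name no version or genome build. The 6 RT112 arrays were used. Genes were typed from RefSeq (GRCh38.p14), which held 22404 of the 22465 symbols. The test of each gene was limma's (version 3.58.1, R 4.3.3, lmFit and eBayes, 4 residual degrees of freedom, Benjamini-Hochberg over all genes, threshold 0.05), on the deposited values and after subtracting each array's median over all rows. The procedure was tested on simulated data. Precision is limited by 3 arrays per group, and the p-values reflect only array-to-array spread, which may be technical. The rule named the 20 largest rises and falls among coding genes and the 10 each among non-coding ones, called on both scales, without overlap, brighter than the array median in the higher group, leaving out genes of an earlier description, and up to 4 members each way per described family. Of 103 families, 54 are described or counted: those with at least 8 genes and the highest shares of 2-fold changes, or with at least 50 genes. Members, lists and families were chosen with earlier results of these data known. Alternatives were quantile normalization, another centre, filters on dim or equal genes, the mean of a gene's rows, trended moderation, a fit with the other treated arrays of the series, the replicate block and leaving out each array. Figures were drawn with matplotlib 3.10.9. One gene among the largest coding rises and 1 gene family are not reported here.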

Additional observations from a re-analysis of the deposited data

How the results depend on the processing

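Quantile normalization over the 6 arrays called 6676 genes higher and 7951 lower, against 2384 and 16480 on the deposited values. Testing only genes above the array median in a group left 9683 lower on the deposited values, since fewer genes were tested. Requiring the quantile-normalized call as well kept the same 1234 genes at least 2-fold changed on both scales. The other scalings, filters and moderations kept between 1179 and 1234 of them, and leaving out 1 array kept between 1144 and 1198. Centring on the median of the genes tested added falls. It gave 7430 genes lower on both scales, against 5932, and 748 at least 2-fold lower, against 594. Of the latter 499 were coding, against 394, and 141 non-coding, against 116. The 640 genes at least 2-fold higher stayed 640, so falls then outnumbered rises. Leaving out 1 array at a time gave 2215 to 2297 genes higher and 15890 to 16066 lower on the deposited values, 7731 to 8233 higher and 5107 to 5663 lower after centring, 2215 to 2297 and 5107 to 5663 on both scales, and 624 to 671 and 550 to 634 by at least 2-fold. By class these were 522 to 565 coding genes higher and 359 to 413 lower, and 59 to 65 non-coding genes higher and 112 to 120 lower. With the replicate block 1233 of the 1234 genes stayed called and at least 2-fold. The labels do not say whether the numbers pair the arrays. Deviations of same-numbered arrays correlated at -0.06, -0.09 and -0.08, which shows no shared effect but cannot exclude pairing. Of 428 genes followed under the alternatives, 423 were called on both scales and 23 lost a call under at least 1 of them, 11 under the replicate block, among them CREB3L1 and INTS11. RNY5 turned to 0.32 with the mean of its rows, and the cause was not tested. Of 3024 family counts 121 moved by more than 1.5 times. The number of arrays, 3 per group, and the low signal of many non-coding genes limit what could be detected.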
